A study of Homo sapiens with 10 samples.

Results

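The oestrogen receptor gene ESR1 and 9 genes widely used as readouts of its activity in breast cancer (PGR, GREB1, TFF1, TFF3, XBP1, MYB, BCL2, IGFBP4 and CA12) were examined in BT474 and SKBR3, both human breast cancer lines that carry an amplified ERBB2, the gene for HER2. BT474 is known as an oestrogen receptor-positive line and SKBR3 as a receptor-negative line. The 10 genes were chosen by name out of 20090 protein-coding genes. Each was taken with 50 kb on either side of its gene body, a stretch called its window here, in GRCh37 (hg19) coordinates.

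H3K4me1, the monomethyl mark on lysine 4 of histone H3, was mapped by ChIP-seq in 2 replicates of each line. The labels describe these cells as asynchronous with no treatment, while the text of the study describes EGF treatment, and the files did not settle which holds. HER2 was mapped by ChIP-exo, in which antibody-bound DNA is trimmed by an exonuclease, in asynchronous cells of each line given vehicle (water) or EGF at 100 ng/ml for 3 h. There was 1 HER2 list per condition, so no HER2 comparison has a replicate. The HER2 antibody was the same product in both lines but its lots differed between them, whereas the H3K4me1 libraries shared 1 lot. The labels do not say whether the H3K4me1 replicates came from separate cultures, so the p-values measure the spread between these samples, which may be technical.

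The oestrogen receptor is a nuclear receptor that, once bound by hormone, attaches to DNA as a dimer, most tightly at a palindrome called the oestrogen response element. Many of its sites lie in distal enhancers and not at promoters. H3K4me1 marks nucleosomes around enhancers and beside active promoters, and in luminal breast cells it is laid down at many receptor sites together with the pioneer factors FOXA1 and GATA3. PGR, GREB1 and TFF1 are classic genes switched on by oestrogen, and a progesterone receptor stain is used in the clinic as a sign of a working oestrogen receptor.

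The lists held 96293 and 89478 H3K4me1 islands in the BT474 replicates and 72888 and 70251 in the SKBR3 replicates. An island is a cluster of enriched 200-base bins. Islands held 18714089 and 15097245 reads in BT474 and 15636057 and 15314195 in SKBR3, and covered 308.9 and 296.2 Mb in BT474 and 317.1 and 320.4 Mb in SKBR3. Reads outside islands were not in the files, and no list held an island of fewer than 20 reads, so a stretch without an island is only below the caller's limit. Luminal epithelial marker starts had an island within 1 kb in both replicates for 2 of 5 genes in BT474 and 3 of 5 in SKBR3, and basal marker starts for 2 of 4 and 4 of 4. Median cover of the marker windows was 43.4 and 45.8% for the luminal and 21.8 and 20.4% for the basal set in BT474, and 53.8 and 47.3% against 46.1 and 50.7% in SKBR3. The windows of ERBB2 and GRB7 were covered to a median of at least 99.0% in every library.

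Sequences of the palindrome are shown first because islands that differed between the lines at GREB1, PGR, TFF1 and IGFBP4 contained them. The element searched was GGTCA, any 3 bases and then TGACC, which reads the same on both strands, in the GRCh37 sequence of every window. Each sequence below is the gene's strand from 5′ to 3′, with the 13 letters of the element in capitals.
GREB1, 21.1 kb before the canonical start, chr2:11653028-11653056, plus strand: gataatcaGGTCAAAATGACCttctttca
GREB1, 9.44 kb before the start, chr2:11664718-11664746, plus strand: tctcaaaaGGTCATCATGACCttattgtc
GREB1, 1.51 kb before the start, chr2:11672652-11672680, plus strand: ggcaactgGGTCATTCTGACCtagaagca
IGFBP4, 64.1 kb after the start, chr17:38663802-38663830, plus strand: tacatccaGGTCAGGGTGACCccattcat
These 4 were the exact elements of the 10 windows. Of the members, 2 held at least 1 exact element, beside 13.6% of all protein-coding gene windows. The GREB1 elements lay in introns of upstream transcripts and the IGFBP4 element lay beyond the gene, between genes.

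The GREB1 elements were all inside islands of both BT474 replicates. Those 21.1 and 9.44 kb before the start were in no SKBR3 island, and the one 1.51 kb before the start was also in an island of SKBR3 replicate 1. The IGFBP4 element was inside islands of both SKBR3 replicates and of no BT474 replicate. The GREB1 window as a whole held more H3K4me1 in BT474 and the IGFBP4 window more in SKBR3, as the values below show. The islands that hold the elements are part of these window values, so the match between them is not independent.

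With 1 mismatch allowed, the element nearest to each canonical start was examined, and 5 are shown here. Substitutions are counted from 1 at the 5′ end of the 13 letters on the gene's strand.
TFF1, 0.399 kb before the start, chr21:43787029-43787057, minus strand, A11G: ccctgcaaGGTCACGGTGGCCaccccgtg
PGR, 51.2 kb after the start, chr11:100949330-100949358, minus strand, C12A: cttgaacaGGTCACAGTGAACttttgctt
BCL2, 1.38 kb after the start, chr18:60985604-60985632, minus strand, A5C: ccacctgtGGTCCACCTGACCctccgcca
ESR1, 26 kb before the start, chr6:152102834-152102862, plus strand, C13T: accaggcaGGTCAGAATGACTctaacatt
IGFBP4, 0.288 kb after the start, chr17:38599976-38600004, plus strand, A11C: cctcgggcGGTCATGCTGCCCctctgcct
The TFF1 element in the promoter, the PGR element in an intron and the BCL2 element in an exon were each in islands of both BT474 replicates and in no SKBR3 island. The ESR1 element, in an intron of upstream transcripts, was in an island of BT474 replicate 2 alone. The IGFBP4 element, in an exon, was in islands of both SKBR3 replicates and of no BT474 replicate.

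The nearest elements of the other members varied. That of TFF3, 8.61 kb before its start, and that of MYB, 65.6 kb after its start, were in no island. That of XBP1, 4.42 kb before the start, was in islands of both SKBR3 replicates and no BT474 replicate, although the XBP1 window as a whole held more reads in BT474. That of CA12, in an intron 1.14 kb after the start, was in islands of all 4 libraries.

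Counted over the 10 windows, 68 elements had at most 1 mismatch. Islands of both BT474 replicates held 27 of them, 39.7%, against 13.1% of the 43615 such elements in all protein-coding gene windows. Islands of both SKBR3 replicates held 14 of them, 20.6%, against 14% in all windows. A further split gave 17 elements (25%) in both BT474 replicates and no SKBR3 replicate, beside 4% in all windows, and 6 elements (8.82%) in both SKBR3 replicates and no BT474 replicate, beside 4.90%. The member windows were themselves more covered in BT474, at 33.7 and 33.9% of their bases in the replicates against 19.4 and 19.7% in SKBR3, while all gene windows together were covered to 13.7 and 13.1% in BT474 and 14.1 and 14.4% in SKBR3. These shares describe letters and islands, and do not show that the receptor was bound.

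**Figure D1:**
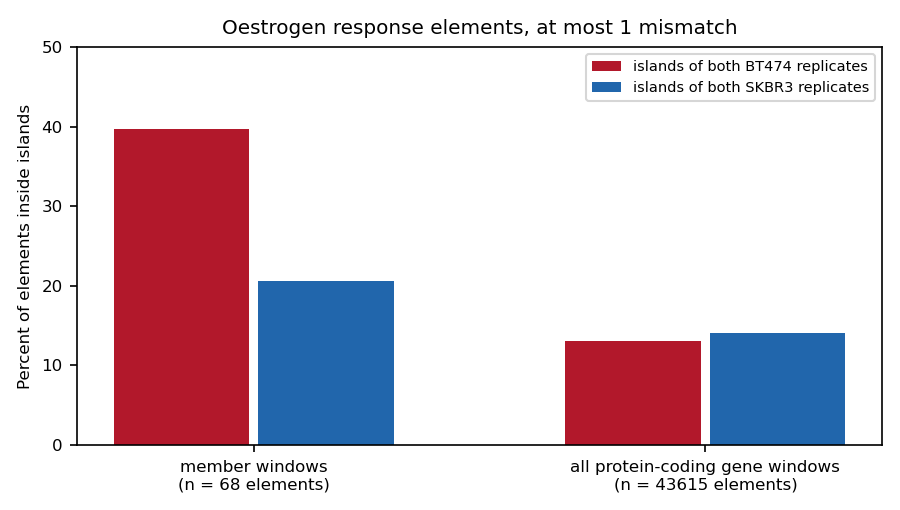
Percent of oestrogen response elements with at most 1 mismatch that lay inside H3K4me1 islands of both BT474 replicates (red) or both SKBR3 replicates (blue), in the 10 member windows and in all protein-coding gene windows. The red bar stands at 39.7% for the members and 13.1% for all windows, and the blue bars at 20.6 and 14%.

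The comparison of BT474 with SKBR3 asked how much H3K4me1 each window carried in a receptor-positive and a receptor-negative line. H3K4me1 reads were higher in BT474 at 7 of the 10 windows (PGR, BCL2, GREB1, TFF1, TFF3, XBP1 and MYB), lower at 2 (IGFBP4 and CA12), and did not pass the test at ESR1. Over all 18838 windows tested, 38.0% were called higher and 34.4% lower, so calls in either direction were common. The median log2 fold of the 10 members was 0.80, beside 0.11 over all windows. Regardless of direction, the median size of the log2 fold over all windows was 0.91. The folds at XBP1, MYB, CA12 and ESR1 were smaller than that. In percent of the window covered by islands, 7 members were higher (ESR1 among them, MYB not) and the same 2 were lower, beside 33.9% higher and 29.3% lower of 19083 windows. The median cover difference was 13.7 percentage points for the members and 0.55 for all windows. Reads were tested with edgeR's quasi-likelihood test and cover with limma, with p-values adjusted by Benjamini-Hochberg over all windows. Leaving out single libraries left the direction of every cover difference as it was, but the calls at ESR1, XBP1 and CA12 were lost without any 1 of the 4 libraries.

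**Figure D2:**
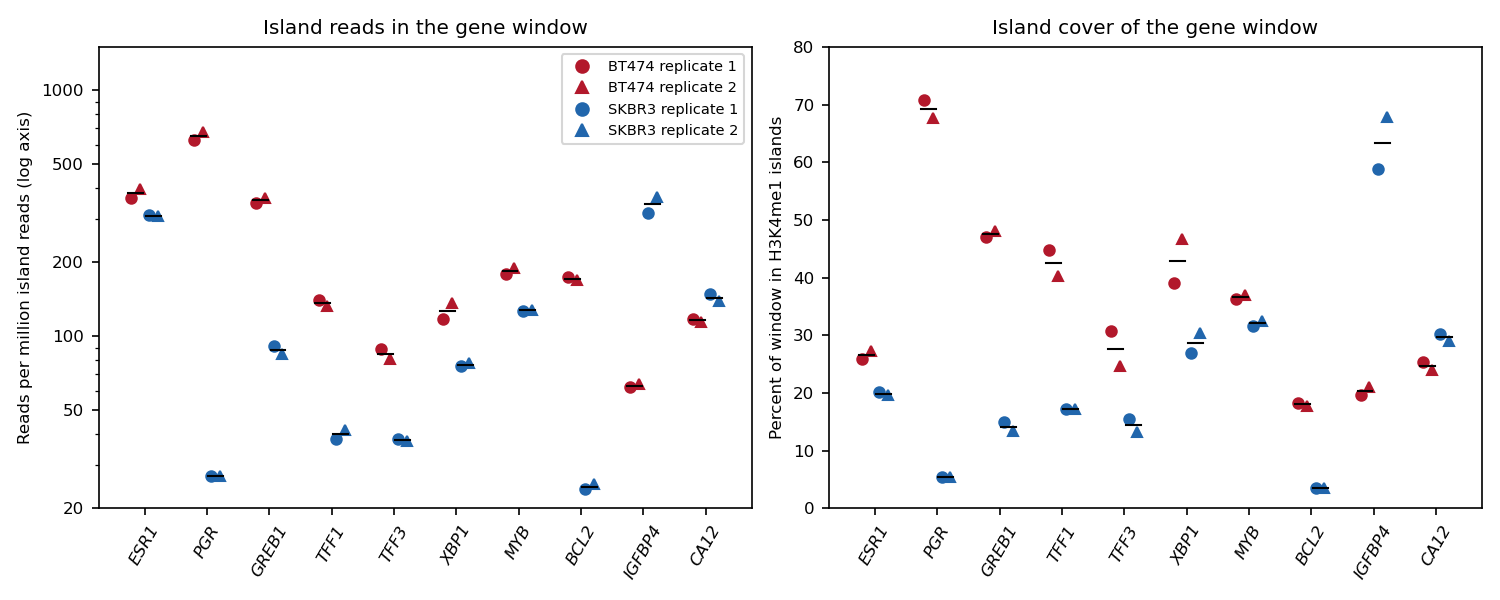
H3K4me1 in the window of each member by library, as RPM (reads per 1000000 island reads of the library) on a log axis (left) and as percent of the window inside islands (right), with BT474 in red, SKBR3 in blue, replicates 1 and 2 as circles and triangles, and the mean of each line as a bar. PGR stands at 631 and 675 RPM in BT474 and 27.2 and 27.1 in SKBR3, and IGFBP4 at 62.2 and 63.7 in BT474 and 318 and 370 in SKBR3.

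**Figure D3:**
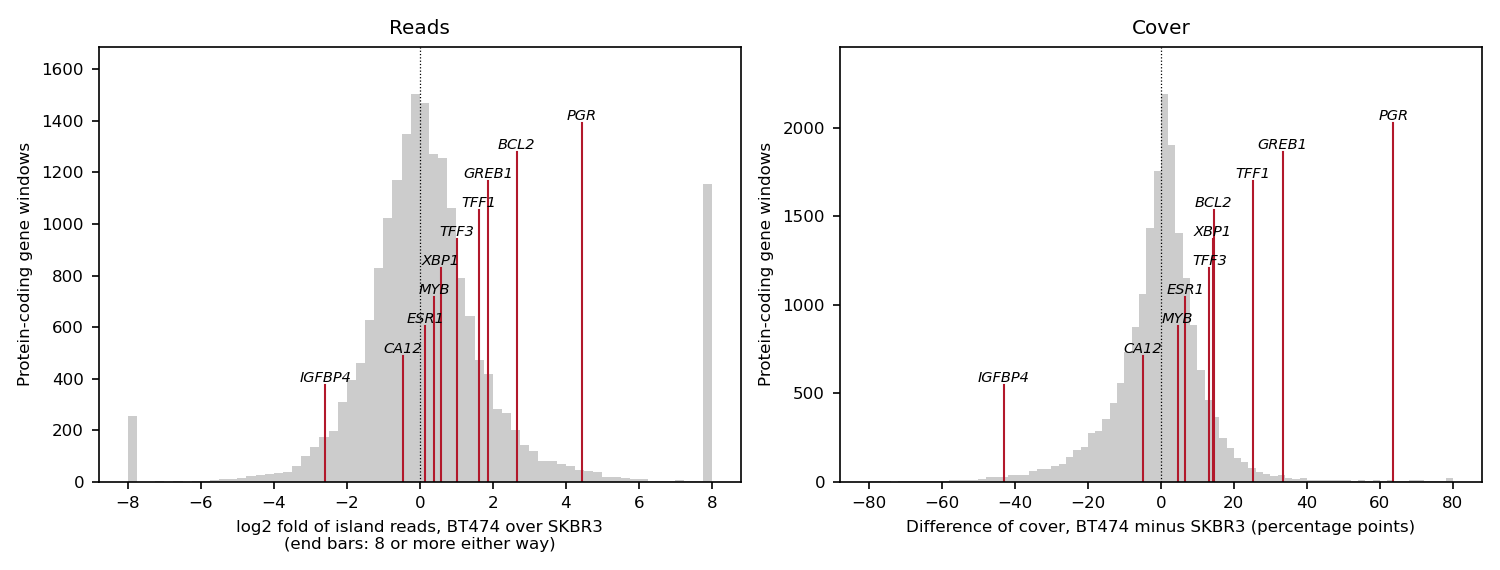
Differences between the lines at all protein-coding gene windows (grey histograms) with the 10 members marked in red, as the fitted log2 fold of island reads (left, where the end bars gather windows with folds of 8 or more either way, which is no measure of size because a line has few or no islands) and as the difference of cover in percentage points (right). PGR and IGFBP4 lie in the sparse ends of the cover differences, at 63.7 and -43.0 points.

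ESR1 itself, which encodes the receptor (chr6:151977826-152450754, plus strand), carried H3K4me1 in both lines. Its window held 367 and 397 reads per 1000000 island reads of the library (RPM) in the BT474 replicates and 311 and 309 in the SKBR3 replicates. Each BT474 value was above each SKBR3 value, but the log2 fold of 0.15 ± 0.065 (SE, 2 replicates per line) did not pass the edgeR test (adjusted p = 0.0946). Islands covered 26 and 27.2% of the window in BT474 and 20.2 and 19.6% in SKBR3, a difference of 6.70 ± 1.41 percentage points (SE, limma adjusted p = 0.0149).

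The read difference at ESR1 depended on the scaling. In the 5 Mb on each side of the gene, BT474 islands held 0.80 times as many reads per kb as the median over all genes in that line, and SKBR3 islands 1.06 times. When reads were scaled by these flanks, the log2 fold was 0.57 ± 0.054 (SE, edgeR adjusted p = 0.00103). Total island reads without TMM, DESeq2 and the 50000 largest islands also put ESR1 past the threshold, at log2 folds of 0.24, 0.16 and 0.27. The other 10 of 14 alternatives did not. Their log2 folds ran from 0.086, without BT474 replicate 2, to 0.22, without BT474 replicate 1.

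The ESR1 start site was marked differently in the lines. The canonical start lay inside an island in both SKBR3 replicates, whereas the nearest BT474 island ended 0.417 kb away in both replicates. The merged region around the start held 338 and 272 reads in BT474 and 58 and 152 in SKBR3, and did not pass the test (edgeR, adjusted p = 0.0797). Called regions lay on both sides of the start. Regions tied at the smallest adjusted p also lay on both sides, some higher and some lower in BT474. The 2 of them with the most reads, described next, were upstream. A region of 11 kb centred 104 kb before the start, in an intron of upstream transcripts, held 587 and 537 reads in BT474 and 204 and 199 in SKBR3 (log2 fold 1.46 ± 0.071, SE, edgeR adjusted p = 0.00193). A region of 10.4 kb centred 175 kb before the start held 406 and 340 reads against 157 and 143 (log2 fold 1.29 ± 0.081, SE, edgeR adjusted p = 0.00193). The window also reaches into the neighbours CCDC170 and SYNE1.

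The genes on other chromosomes whose cover over the 4 H3K4me1 libraries was nearest to that of ESR1 were OGFOD1, CYP51A1 and P2RX3, at distances of 1.71, 1.81 and 2 percentage points. Beside 20090 protein-coding genes in all, 172 lay within 5 points, so the named genes were not alone in being close.

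PGR (chr11:100900355-101000544, minus strand), the gene for the progesterone receptor and a direct target of the oestrogen receptor, differed most among the members. Its window held 631 and 675 RPM in BT474 and 27.2 and 27.1 in SKBR3, a mean of 653 ± 31.3 against 27.1 ± 0.058 (SD, n = 2 each). The mean was 24.1 times as high in BT474, with a log2 fold of 4.44 ± 0.072 (SE, edgeR adjusted p = 5.94e-05). Islands covered 70.7 and 67.6% of the window in BT474 and 5.49 and 5.39% in SKBR3, a difference of 63.7 ± 1.87 percentage points (SE, limma adjusted p = 0.00054). Of all windows, 0.288% had a larger cover difference in that direction, and 7.10% had a higher log2 fold of reads.

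The mark at PGR formed long domains in BT474. A merged region of 41.0 kb, centred 82.2 kb after the start and reaching the 3′ end of the gene (chr11:100897801-100938800), held 3499 and 3058 BT474 reads and no island was listed there in either SKBR3 replicate. Around the start, a region of 11.8 kb held 769 and 709 reads in BT474 and 62 and 66 in SKBR3 (log2 fold 3.51 ± 0.091, SE, edgeR adjusted p = 0.00193). The SKBR3 island at the start was listed in replicate 2, and the nearest island of replicate 1 was 7.26 kb away. Density in the flanks of 5 Mb was 1.34 times that median in BT474 and 1.04 times in SKBR3, and with reads scaled by the flanks the log2 fold was 4.08 ± 0.065 (SE, edgeR adjusted p = 0.000113).

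GREB1 (chr2:11622467-11782914, plus strand), whose protein binds the oestrogen receptor as a cofactor, held 350 and 367 RPM in BT474 and 91.6 and 84.6 in SKBR3. The mean was 4.06 times as high in BT474 (log2 fold 1.87 ± 0.082, SE, edgeR adjusted p = 0.000153). Cover was 47.1 and 48.1% in BT474 and 14.9 and 13.4% in SKBR3 (difference 33.4 ± 1.57 percentage points, SE, limma adjusted p = 0.000799). A region of 40 kb across the canonical start held 2452 and 2064 reads against 636 and 590. A region of 24.2 kb centred 31.1 kb before the start, which holds the exact element 21.1 kb before it, held 1461 and 1218 reads against 72 and 61 (log2 fold 4.31 ± 0.096, SE, edgeR adjusted p = 0.00193).

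TFF1 (chr21:43782391-43786644) and TFF3 (chr21:43731777-43735519), both on the minus strand, encode secreted trefoil peptides of mucous epithelia, and TFF1 is the classic oestrogen-induced transcript pS2. Their starts are 51.1 kb apart and their windows share 53.1 kb, so their values are not independent. The TFF1 window held 140 and 133 RPM in BT474 and 38.4 and 41.8 in SKBR3 (log2 fold 1.62 ± 0.074, SE, edgeR adjusted p = 0.000169). The TFF3 window held 88.7 and 81.1 against 38.2 and 37.6 (log2 fold 1.01 ± 0.088, SE, edgeR adjusted p = 0.00077). Cover of the TFF1 window was 44.7 and 40.3% in BT474 and 17.3% in both SKBR3 replicates, and that of the TFF3 window 30.8 and 24.6% against 15.6 and 13.2%.

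At TFF1 the higher BT474 values came from the flanks. The region across its start, 7.20 kb long, held 319 and 249 reads in BT474 and 185 in each SKBR3 replicate (log2 fold 0.59 ± 0.085, SE, edgeR adjusted p = 0.00713), and over the short gene body alone the log2 fold was -0.034 (adjusted p = 0.866). At TFF3 the region with the smallest adjusted p lay on the gene. This region of 11.6 kb across the start held 586 and 442 reads against 82 and 89 (log2 fold 2.56 ± 0.109, SE, edgeR adjusted p = 0.00193). The other region named by the rule lay 38.8 kb after the TFF3 start, inside ABCG1, with no BT474 island and 125 and 155 SKBR3 reads. The limma call on the cover of TFF3 was lost without BT474 replicate 1 and without either SKBR3 replicate (adjusted p = 0.0744, 0.0840 and 0.109).

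XBP1 (chr22:29190543-29196585, minus strand), a transcription factor of the unfolded protein response, and MYB (chr6:135502446-135540311, plus strand), a transcription factor best known in blood progenitors and kept on by the receptor in breast cancer, differed less. The XBP1 window held 118 and 136 RPM in BT474 and 75.5 and 77.7 in SKBR3 (log2 fold 0.58 ± 0.097, SE, edgeR adjusted p = 0.00562). Its cover was 39.0 and 46.6% against 27 and 30.4% (difference 14.2 ± 3.19 percentage points, SE, limma adjusted p = 0.0182). Over the 6.04 kb gene body alone the values pointed the other way, with a log2 fold of -0.60 (edgeR, adjusted p = 0.134) and a cover difference of -21.5 percentage points (limma, adjusted p = 0.0750). The XBP1 call is therefore one of the 50 kb flanks, which include parts of CCDC117 and HSCB.

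The MYB window held 180 and 189 RPM in BT474 and 127 and 128 in SKBR3 (log2 fold 0.39 ± 0.064, SE, edgeR adjusted p = 0.00559). Without BT474 replicate 2 the adjusted p was 0.0512. Cover was 36.3 and 36.9% against 31.7 and 32.4%, a difference that did not pass (4.59 ± 1.54 percentage points, SE, limma adjusted p = 0.0561). The regions with the smallest adjusted p at both genes were short and had no SKBR3 island: at XBP1 5.00 kb, centred 28.7 kb before the start, with 140 and 133 BT474 reads, and at MYB 1.60 kb, centred 53.2 kb after the start, with 74 and 57 BT474 reads. A longer MYB region, of 10.6 kb centred 6.14 kb before the start, held 691 and 536 reads in BT474 and 94 and 169 in SKBR3 (log2 fold 2.19 ± 0.331, SE, edgeR adjusted p = 0.00808), and was added after its values were seen.

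BCL2 (chr18:60790579-60987361, minus strand), the inhibitor of apoptosis, held 174 and 169 RPM in BT474 and 24.0 and 25 in SKBR3. The mean was 6.99 times as high in BT474 (log2 fold 2.66 ± 0.069, SE, edgeR adjusted p = 7.5e-05), although cover was modest in both lines, at 18.3 and 17.7% against 3.58 and 3.51% (difference 14.5 ± 0.974 percentage points, SE, limma adjusted p = 0.00101). A region of 15.4 kb in an intron, centred 59.9 kb after the start (chr18:60919401-60934800), held 1184 and 1003 BT474 reads, and no SKBR3 island was listed there. A region of 9 kb centred 184 kb after the start held 547 and 426 BT474 reads, again with no SKBR3 island. With reads scaled by the 5 Mb flanks the log2 fold was 2.40 ± 0.092 (SE, edgeR adjusted p = 0.000165).

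IGFBP4 and CA12 differed in the other direction. IGFBP4 (chr17:38599702-38613977, plus strand), which encodes a secreted binding protein for insulin-like growth factors, held 62.2 and 63.7 RPM in BT474 and 318 and 370 in SKBR3. The mean was 5.46 times as high in SKBR3 (log2 fold -2.60 ± 0.084, SE, edgeR adjusted p = 9.07e-05). Cover was 19.6 and 21% in BT474 and 58.8 and 67.9% in SKBR3 (difference -43.0 ± 3.50 percentage points, SE, limma adjusted p = 0.00137), and 0.844% of all windows had a lower value. For the log2 fold of reads, 4.50% of all windows had a lower value. Without BT474 replicate 1 or 2 this cover difference was -42.3 or -43.7 points and did not pass (adjusted p = 0.0567 and 0.0536).

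Most of the SKBR3 signal at IGFBP4 lay beyond the gene. A region of 64.6 kb that begins inside the window and runs past its end held 1583 and 1287 reads in BT474 and 8241 and 8311 in SKBR3 (log2 fold -2.55 ± 0.047, SE, edgeR adjusted p = 0.00193). Most of that region lay outside the window, and its reads are counted whole. The window itself held 4971 and 5659 reads in SKBR3. A region of 22 kb over part of TNS4 held 311 and 202 reads against 2020 and 2197 (log2 fold -3.07 ± 0.168, SE, edgeR adjusted p = 0.00193). The region across the IGFBP4 start, 20.6 kb long, held 481 and 494 against 865 and 973 (log2 fold -0.93 ± 0.138, SE, edgeR adjusted p = 0.00778). IGFBP4 lies 713 kb from the end of the amplified ERBB2, and reads per kb of island in its 5 Mb flanks were 2.38 times the median over all genes in BT474 and 2.22 times in SKBR3. With reads scaled by these flanks the log2 fold was -2.69 ± 0.100 (SE, edgeR adjusted p = 0.000156). The flanks are averages over 5 Mb on each side, and the copy number of the window itself was not tested.

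CA12 (chr15:63613577-63674045, minus strand), a carbonic anhydrase of the cell surface, held 118 and 114 RPM in BT474 and 148 and 139 in SKBR3 (log2 fold -0.46 ± 0.073, SE, edgeR adjusted p = 0.00479). Its cover was 25.3 and 23.9% against 30.2 and 29.1% (difference -5.01 ± 1.51 percentage points, SE, limma adjusted p = 0.0419). The regions were mostly alike: of 12 merged regions in its window, 1 was higher and 2 were lower. The lower one with the smallest p, 7.60 kb long and centred 52.4 kb before the start, held 209 and 141 reads in BT474 and 340 and 348 in SKBR3 (log2 fold -1.01 ± 0.143, SE, edgeR adjusted p = 0.00681).

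Per kb of island the members were closer to each other than per window. PGR in BT474 and IGFBP4 in SKBR3 had the most RPM per kb of island, at 4.72 and 4.75. The other members had 2.50 to 3.66 in BT474 and, PGR included, 2.23 to 3.02 in SKBR3. The total length under islands in the PGR window, averaged over the replicates, was 138 kb in BT474 and 10.9 kb in SKBR3, and in the IGFBP4 window 23.2 and 72.4 kb, so this length differed by more than the reads per kb of island did at both genes.

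The count of marked start sites depended on how close an island had to be. An island lay within 1 kb of the canonical start in both BT474 replicates at 8 of 10 members, beside 50.7% of all protein-coding genes, and in both SKBR3 replicates at 5, beside 35.4%. The starts of ESR1, TFF1, TFF3 and CA12 were marked in all 4 libraries. MYB and BCL2 starts, at 0.846 and 0.002 kb from the nearest BT474 island, were marked in both BT474 replicates and no SKBR3 replicate, which was so for 14.3% of all genes. The PGR start was marked in both BT474 replicates and SKBR3 replicate 2, the GREB1 start in both BT474 replicates and SKBR3 replicate 1, and the IGFBP4 start in both SKBR3 replicates and BT474 replicate 2. No island came within 1 kb of the XBP1 start in any library, the nearest being 1.04 kb away. With the start base itself required inside an island the count was 4 in each line, and with any annotated transcript start it was 9 in each line, so the lines differed in neither case.

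**Figure D4:**
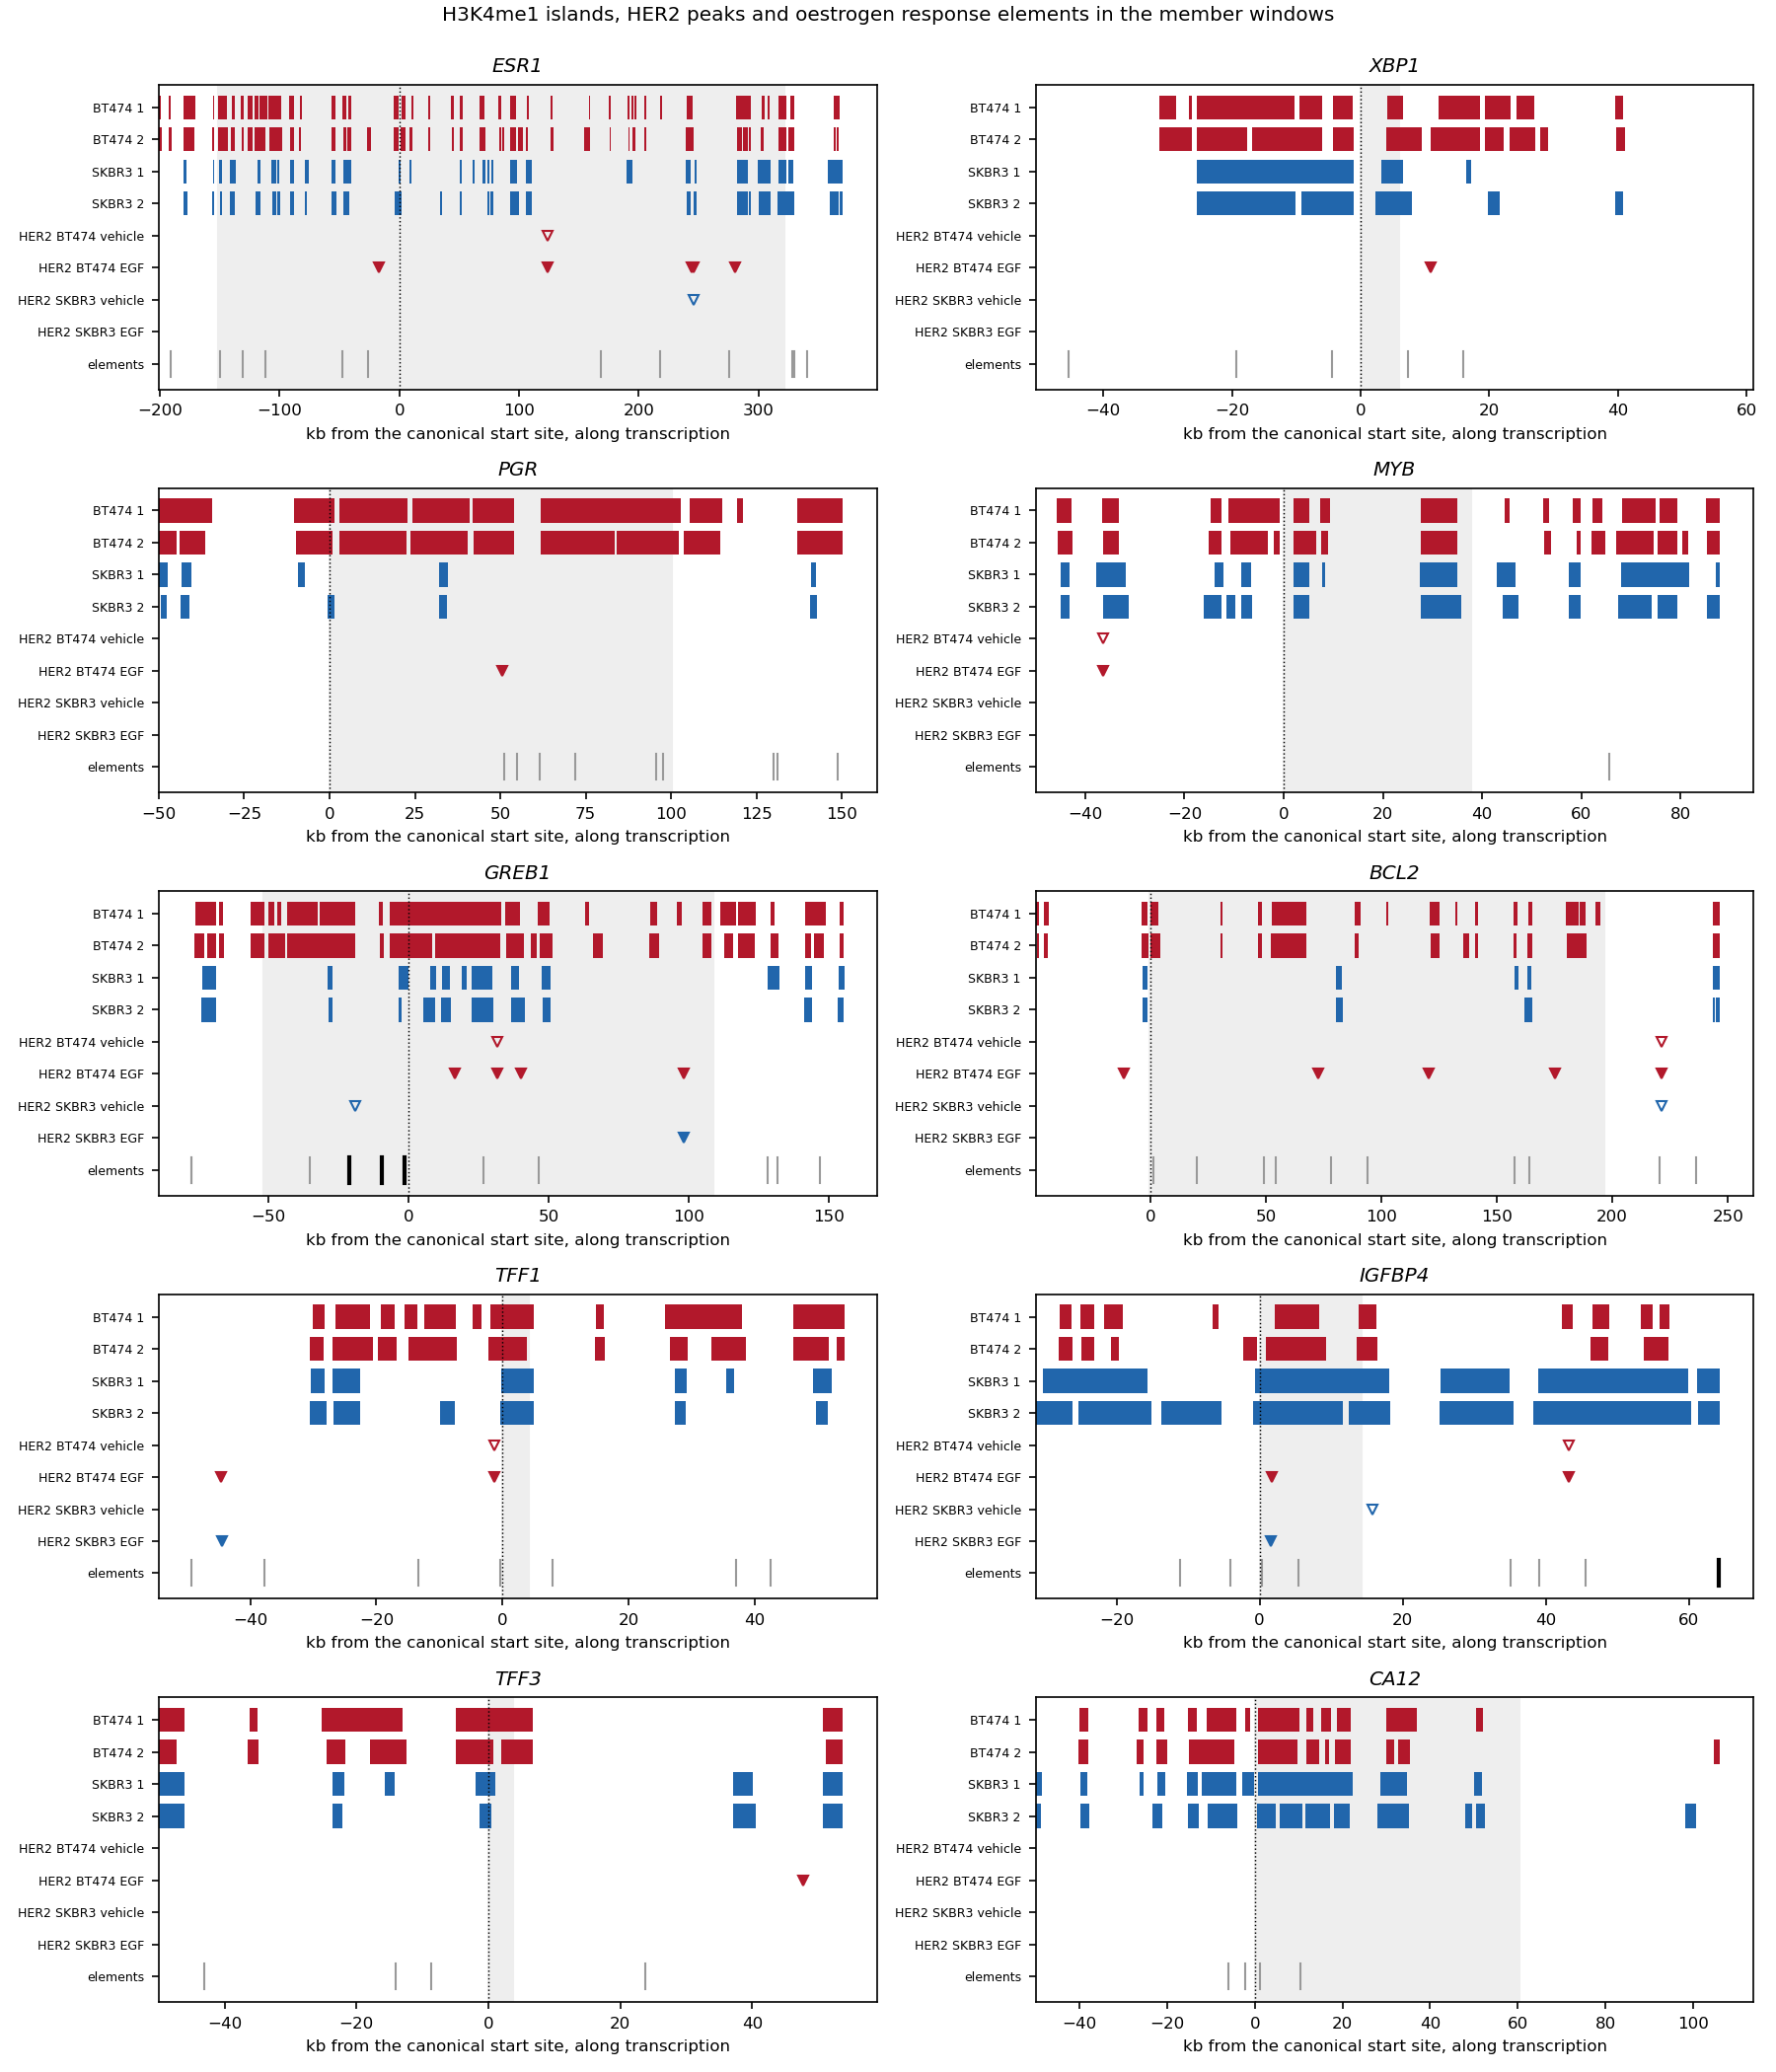
Islands of H3K4me1 in the 10 windows, by library (red BT474, blue SKBR3), with HER2 peaks in each of the 4 lists (triangles, open for vehicle, filled for EGF) and oestrogen response elements (grey ticks with 1 mismatch, black ticks exact), against distance in kb from the canonical start along transcription, with the gene body shaded grey. PGR shows nearly unbroken BT474 islands over a body with 2 short SKBR3 islands at most, IGFBP4 shows long SKBR3 islands beyond the gene, and CA12 shows islands in much the same places in both lines.

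Line-specific regions, at least 1 kb long and inside islands of both replicates of a line and of no replicate of the other, are a description because the contrast defines them. The windows held 90 BT474-only regions and 30 SKBR3-only regions, with those in the shared TFF1 and TFF3 stretch counted under both genes. At least 1 BT474-only region lay in 8 of the windows, beside 71.2% of all gene windows, and at least 1 SKBR3-only region in 7, beside 64.1%. By length the pooled member windows stood further from the rest: 15.8% of their 2.01 Mb was BT474-only against 3.31% of all gene windows, and 3.62% was SKBR3-only against 3.85%. The pooled shares were uneven. PGR and GREB1 held the most BT474-only bases, at 118 and 72.4 kb, and IGFBP4 and CA12 held none. IGFBP4 held the most SKBR3-only bases, at 38.8 kb. Bases inside islands of all 4 libraries made up 10.6% of member windows and 6.34% of all gene windows.

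PGR held 118 kb of BT474-only bases in 13 regions, which was 59.1% of its window, and no SKBR3-only region. The longest, 21.6 kb and 19.6 kb, lay in introns and held 1843 and 1672 reads, and 2003 and 1779 reads, in the BT474 replicates. GREB1 held 72.4 kb in 21 regions, also with no SKBR3-only region. Its longest, of 10.6 and 8 kb, were centred 37.9 and 23.2 kb before the canonical start, and the second contains the exact element at 21.1 kb. BCL2 held 36.6 kb in 9 BT474-only regions, of which 15.2 kb made up the intronic region described above, and 1 SKBR3-only region of 2.40 kb. TFF1 held 18 kb in 10 BT474-only regions and no SKBR3-only region.

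ESR1 had regions of both kinds, 23 BT474-only with 48.0 kb and 10 SKBR3-only with 21.2 kb. The longest BT474-only ones, of 6.20 and 3.8 kb, lay 174 and 146 kb before the canonical start, and the longest SKBR3-only one, of 3.20 kb, lay in SYNE1. XBP1 and MYB each had mostly BT474-only regions, with 11 and 8.40 kb, beside 1.80 and 2.60 kb of SKBR3-only bases. TFF3 had 12.4 and 3.00 kb. IGFBP4 had 38.8 kb in 13 SKBR3-only regions and no BT474-only region, and its longest, of 10.8 kb, which begins past TNS4 and crosses the window's end, held 1378 and 1416 reads and the exact element. CA12 had 2 SKBR3-only regions, with 2.65 kb inside its window, and no BT474-only region. The authors had removed stretches of high input signal separately for each line, and their part in these regions was not tested.

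**Figure D5:**
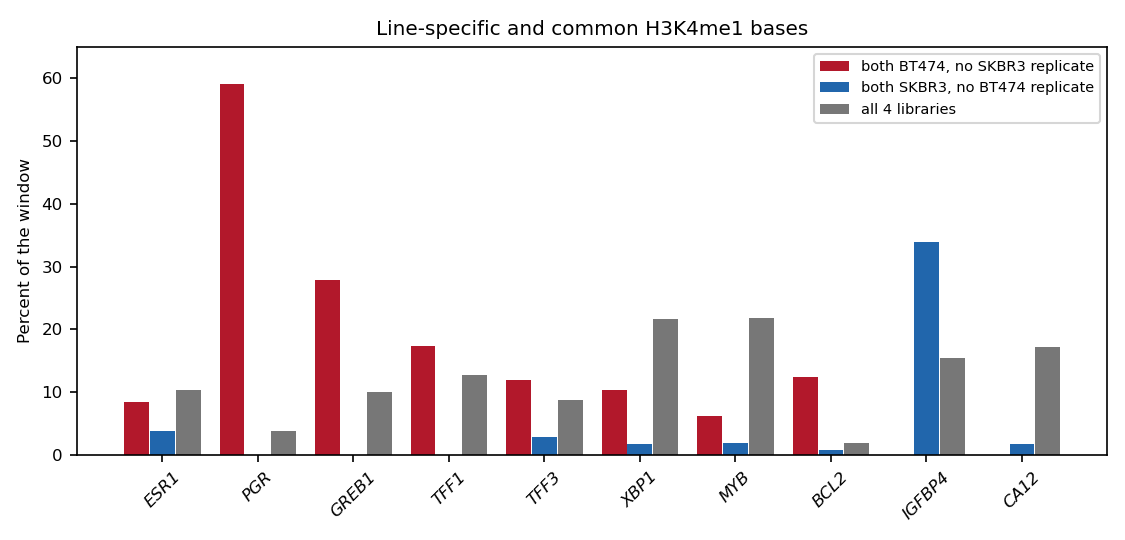
Percent of each member window inside islands of both BT474 replicates and no SKBR3 replicate (red), of both SKBR3 replicates and no BT474 replicate (blue), or of all 4 libraries (grey). PGR reaches 59.1% BT474-only and IGFBP4 33.9% SKBR3-only, while XBP1 and MYB have more common than line-specific bases.

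Over whole merged regions, joined from touching islands of the 4 libraries, the 10 windows held 141 distinct regions. Reads were higher in BT474 at 68, lower at 20, not called at 34 and not tested at 19 (edgeR). Over all 93127 regions tested, 43.2% were called higher and 27.5% lower. All 8 PGR regions that could be tested were higher, and 5 of the 6 IGFBP4 regions were lower with none higher. ESR1, with 42 regions, had 18 higher and 8 lower. Without BT474 replicate 1 or 2 the members' higher regions numbered 29 or 26, and without SKBR3 replicate 1 the lower ones numbered 13.

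HER2 peak counts in the windows were lower in SKBR3 than in BT474 over the whole lists, which differ in length. The SKBR3 lists held 4 after vehicle and 3 after EGF, and the BT474 lists 6 after vehicle and 22 after EGF, out of 2596 in SKBR3 vehicle, 0.971 times as many in SKBR3 EGF, 8559 in BT474 vehicle and 29326 in BT474 EGF. With every list limited to as many of its highest scores as the shortest list held, the counts were 3 and 3 in SKBR3 and 1 and 5 in BT474, after vehicle and EGF, so the vehicle counts turned the other way. Per Mb of window the whole lists held 2, 1.5, 2.99 and 11 peaks, in the order SKBR3 vehicle, SKBR3 EGF, BT474 vehicle and BT474 EGF, beside 0.855, 0.830, 2.82 and 9.66 per Mb of the genome. At least 1 peak lay in 4, 3, 6 and 9 of the 10 windows, in the same order, beside 12.2, 13.0, 35.5 and 72.6% of all gene windows, which are shorter (median gene body 27.3 kb against 49.2 kb for the members). The CA12 window had none in any list. With overlapping peaks joined, there were 24 sites: 12 in BT474 EGF alone, 5 in both BT474 lists, 3 in both EGF lists, 2 in SKBR3 vehicle alone, 1 in BT474 EGF and SKBR3 vehicle, and 1 in these 2 and BT474 vehicle.

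The score that came with each peak is on a scale the sources do not state, and is compared within a list. The PGR peak, in an intron 50.6 kb after the start, was in the BT474 EGF list with a score of 329.5, against a list median of 56.0, and ranked 666 of 29326. It lay in islands of both BT474 replicates and of no SKBR3 replicate. Its midpoint was 0.55 kb from the PGR element printed above, the smallest such distance in any member window. The other PGR elements lay 4.27 to 98.1 kb away. The TFF1 promoter peak, 1.24 kb before the start after vehicle and 1.26 kb after EGF, lay in islands of both BT474 replicates, with scores of 39.0 and 37 below the medians of both lists (64.5 and 56.0). A further TFF1 site, 44.5 kb before the start inside UBASH3A, was in both EGF lists, with a score of 235.5 in SKBR3 and 214.5 in BT474, and in no island.

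IGFBP4 had a peak in an intron 1.61 kb after the start in the SKBR3 EGF list, with a score of 254 against a median of 129, which overlapped a BT474 EGF peak with a score of 53.5. It lay in islands of both SKBR3 replicates and BT474 replicate 2. A peak 43.3 kb after the start, in TNS4, was in both BT474 lists (scores 85.5 and 72.0), and one 15.7 kb after the start was in the SKBR3 vehicle list (36.5). The MYB site 36.5 kb before the start was in both BT474 lists (84.5 and 83.5) and in islands of all 4 libraries. TFF3 and XBP1 each had 1 peak, both in the BT474 EGF list and outside islands, 47.7 kb and 10.8 kb after their starts, with scores of 62.0 and 54.5.

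ESR1 had 5 peaks in the BT474 EGF list, all intronic. The one 124 kb after the start (score 198.5) was also in the BT474 vehicle list (91.0), and the one 246 kb after the start (42.5) overlapped the ESR1 peak of the SKBR3 vehicle list (49.0). The others lay 17.2 kb before the start (44) and 244 and 281 kb after it (14.5 and 37.5). Of the 5, the peak 244 kb after the start was in BT474 islands. BCL2 had 5 in the same list, with scores of 285, 284.5, 54.0, 46.0 and 28.0, lying 221 and 121 kb after, 11.6 kb before, and 175 and 72.8 kb after the start. The first of these, beyond the gene, was also in the BT474 vehicle list (175) and overlapped a peak of the SKBR3 vehicle list (28.0).

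GREB1 had 4 BT474 EGF peaks, all intronic, 16.6, 31.8, 40.1 and 98.2 kb after the start, with scores of 58.5, 77.0, 73.5 and 26.5. The first 3 lay in an island of at least 1 BT474 replicate. The peak at 31.8 kb was also in the BT474 vehicle list (40.5), and the one at 98.2 kb overlapped a peak of the SKBR3 EGF list (78.5). The SKBR3 vehicle peak of GREB1, 19.1 kb before the start, had a score of 14.5 and lay in BT474 islands and in no SKBR3 island. Of all peaks in the windows, 2 of 4, 1 of 3, 4 of 6 and 10 of 22 lay in an island of at least 1 replicate of their own line, in the order SKBR3 vehicle, SKBR3 EGF, BT474 vehicle and BT474 EGF. The shares over the whole lists were 18.8, 17.4, 15.4 and 14%. Member windows were also more covered by islands than all gene windows, at 33.7 and 33.9% against 13.7 and 13.1% in BT474. In SKBR3 the cover was 19.4 and 19.7% against 14.1 and 14.4%. The part of this cover in the peak counts was not tested. The peak counts come from 1 list each and carry no test.

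The study describes the core CGTNTGC at HER2 sites. Searched on both strands within 50 bp of the peak midpoint, it was present at 4 of the 22 BT474 EGF peaks and 1 of the 6 BT474 vehicle peaks in the windows, and at none of the 4 and 3 SKBR3 peaks, which are too few to bound a share. Over the whole lists the shares were 7.48% for BT474 EGF, 12% for BT474 vehicle, 3.47% for SKBR3 vehicle and 12% for SKBR3 EGF. The stretches that hold it are given with the core in capitals, on the plus strand of the genome.
BCL2, chr18:60765792-60765820: cctaagtagctCGTTTGCcggcccagcct
GREB1, chr2:11690831-11690859: gccctacttctCGTCTGCtttgaaaatgc
GREB1, chr2:11706016-11706044: gtttatgtttcCGTTTGCcgtcatgtgtt
ESR1, chr6:152111655-152111683: cttgatcctttCGTATGCttgatgtgtga
The BCL2 stretch, 221 kb after the start, lay under a peak of both BT474 lists. It also lay inside the overlapping SKBR3 vehicle peak, but with its core more than 50 bp from the midpoint of that peak. The GREB1 stretches lay in BT474 islands, and the BCL2 and ESR1 stretches in no island of any library. A match is a description of the letters at these peaks.

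Other genes of the pathway are given by their counts. Of 32 other genes known to be induced by oestrogen, reads in the window were higher in BT474 at 14 and lower at 9 (edgeR), with a median log2 fold of 0.36, and cover was higher at 14 and lower at 9 (limma), with a median difference of 4.82 percentage points. Of 20 partners and cofactors of the receptor, reads were higher at 11 and lower at 3, with a median log2 fold of 0.32, and cover was higher at 10 and lower at 2, with a median difference of 5.88 points. The background for these counts is the 38.0 and 34.4% of windows called for reads and the 33.9 and 29.3% called for cover. The starts of 21 of the 32 induced genes were marked in both BT474 replicates and 15 in both SKBR3 replicates, and those of 11 and 6 of the 20 partners. Of all protein-coding genes, 50.7 and 35.4% had a start so marked. Some genes are in both lists, so the counts of the lists overlap.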

How the data were processed

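H3K4me1 was measured in 2 samples per line and HER2 in 1 per condition, and 2 input samples were not used here. Per the study's text, reads were aligned to hg19 with bowtie2, reads of mapping quality under 5 and blacklisted or line-specific high-input regions were removed, and peaks were called with MACS2 and islands with SICER. The submitters' processing notes instead name BWA 0.5.9 and MACS 1.4.1, with SICER 1.1. Island read counts, whole and not scaled, were used as deposited. The HER2 peak score was used as deposited by the authors and moves in steps of 0.5.

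Islands were assigned to windows by the part inside them, with reads rounded, using GENCODE 44 mapped to GRCh37 (278 of 20090 genes had no canonical transcript and used the gene end). Counts were tested with edgeR 4.0.16 (TMM, filterByExpr, quasi-likelihood) and percent cover with limma 3.58.1 (trend) in R 4.3.3, over all windows and with adjusted p under 0.05, and DESeq2 1.42.0 was an alternative. Exact permutation of 2 against 2 samples cannot go below 0.333. The interval sums, searches and fits were tested on simulated data. Replicates differed beyond sampling noise (chi-square per degree of freedom 6.23 in BT474 and 14.6 in SKBR3).

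All members were named, with up to 2 regions each by smallest adjusted p or length, peaks by list, every exact element and the nearest with 1 mismatch, and the 3 genes nearest to ESR1 in cover. Outside this rule, the regions around the starts of ESR1, PGR, TFF1 and IGFBP4 and the longer MYB region were also described. The members and lists were chosen with earlier results of these data known. In all, 52 alternatives were planned and 3 were added after the data were seen. The blood cell marker list is not reported here.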

Additional observations from a re-analysis of the deposited data

Results flagged for a closer look

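The change in the number of HER2 peaks in the member windows from vehicle to EGF went opposite ways in the lines: -1 in SKBR3, from 4 to 3 peaks, and 16 more in BT474, from 6 to 22. The EGF list as a whole was 0.971 times as long as the vehicle list in SKBR3 and 3.43 times as long in BT474. With 1 list per condition the difference between the lines was not tested.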

How the results depend on the processing

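PGR, GREB1 and BCL2 kept their direction and their call in reads and in cover under every alternative, and TFF3, IGFBP4 and CA12 did so in reads. With the gene body alone, which moved the median log2 fold of all windows by 0.14, members higher in BT474 numbered 4 in reads and 4 in cover, cover calls over all windows 7360, and TFF1 and XBP1 reversed, at log2 folds of -0.034 and -0.60 and cover differences of -4.82 and -21.5 points. Members lower in cover numbered 1 with the gene body alone, with 10 kb flanks and with the replicate block. Leaving out 1 library at a time gave 5829 to 8946 cover calls over all windows, 4 to 5 members higher in cover and 0 to 1 lower. The 0 came from limma without BT474 replicate 1 or 2, where 2 and 1 members had an unadjusted p under 0.05. For merged regions, calls numbered 42323 with the 50000 largest islands, 43 of them higher in the members. Leaving out 1 library gave 30721 to 62460 calls, with 26 to 75 member regions higher and 13 to 19 lower. With the replicate block, edgeR called 0 regions, 0 higher and 0 lower in the members, although 29556 regions, 40 higher and 13 lower in the members, had an unadjusted p under 0.05. DESeq2 without the block called 70 higher and 22 lower in the members. Deviations of same-numbered replicates were not correlated between the lines over gene windows (-0.028 over 18838 windows), and this was not examined over merged regions. The block also leaves fewer degrees of freedom to estimate the spread. Why the region calls were lost with it was not tested. Start sites numbered 4 in each line with the start base inside an island and 9 in each line with any transcript start. SKBR3-only regions numbered 48 at a minimum of 200 bases and 49 with 1 replicate enough. HER2 peaks in the gene bodies alone numbered 2 (SKBR3 vehicle), 2 (BT474 vehicle) and 14 (BT474 EGF), and BT474 vehicle had 3 with 10 kb flanks. As many of the highest scores as the shortest list held gave 1 and 5 peaks in BT474. Peaks in islands of both replicates numbered 1 (SKBR3 vehicle) and 6 (BT474 EGF), and SKBR3 vehicle peaks in islands numbered 1 to 2 with either SKBR3 replicate left out. The core anywhere in the peak was found at 2 SKBR3 vehicle and 2 BT474 vehicle peaks. Elements in islands numbered 27 (BT474) and 14 (SKBR3) with 1 mismatch allowed, 2 (SKBR3) with 1 replicate enough and 1 to 2 with either SKBR3 replicate left out. The cause of these shifts was not tested. Another 123 counts stayed within 1.5 times their value, and of the values of single members 194 stayed on their side of the threshold, 26 fell below it and 6 rose above it. Reads outside islands and the depth of the HER2 libraries were not in the files, which limits what an absent island or peak shows.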
